A study of Mus musculus with 30 samples.

Results

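Ribosome-associated RNA of the D1 and the D2 class of medium spiny neuron was compared in stressed female mice that were grouped as Resilient. The comparison took the 5 D1 libraries and the 5 D2 libraries that the labels call Resilient, 10 of the 30 libraries in the series, and covered every gene that passed a filter on low counts. Medium spiny neurons (MSNs) were marked by RiboTag (RT), a tagged ribosomal protein switched on by Cre recombinase. The D1 libraries came from D1-Cre-RT mice, and the D2 libraries from A2A-Cre-RT mice, in which Cre follows the adenosine A2A receptor gene. All of these mice were stressed by CWDS, chronic witness defeat stress, during which females observe other mice being defeated. Social interaction scores then sorted the stressed mice into Resilient and Susceptible. The other 20 libraries were Control and Susceptible, 5 libraries for each class, with the same pair of genotypes. Nucleus accumbens tissue was collected 24 h after that behavioural test, and each library pooled 4 mice with like scores. The age of the mice was not given in the sources used here. Because each class came from its own mouse line, class and line cannot be told apart. In such bulk pulldown, fewer cells of a type and less RNA per cell also cannot be told apart.

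The nucleus accumbens is the ventral part of the striatum and takes part in reward and motivation. Its projection neurons are GABA-releasing and fall into a class that carries the D1 dopamine receptor with the peptides dynorphin and substance P, and a class that carries the D2 dopamine receptor and the adenosine A2A receptor with enkephalin. D1 receptors raise cyclic AMP (cAMP) and D2 receptors lower it, so dopamine acts on the classes in opposite ways. Immunoprecipitation of tagged ribosomes enriches the RNA of the marked cells and carries along some RNA from other cells.

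The 10 libraries held 45981977 to 62997974 gene counts each, with 21361 to 21790 genes detected in D1 and 19925 to 21664 in D2. Levels are given as CPM, the count of a gene scaled to a common effective library size (the gene counts times the TMM factor), and a positive log2 difference is higher in D1. On that scale a floor of 3 counts was 0.0441 to 0.0620 CPM, which covers counting error only, since the libraries carry no molecular identifiers. Mitochondrial genes took 0.512% to 1.16% of the gene counts in D1 and 1.05% to 1.97% in D2. All 20 pairs of replicates differed by more than counting noise (chi-square over its degrees of freedom 16.4 to 93.7), and each library was counted as 1 sample. Rpl22, the gene of the ribosomal protein that RiboTag labels, was at 56.3 to 71.2 CPM in D1 and 54.5 to 66.1 CPM in D2 (D1 minus D2 -0.00 in log2, SE 0.12, edgeR adjusted p 0.996).

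The class markers separated the labelled classes, and 1 library stood apart. The D1 dopamine receptor gene Drd1 (ENSMUSG00000021478, chromosome 13, 54051183 to 54055705) was at 573, 469.5, 455, 548 and 461 CPM in D1 replicates 1 to 5 and at 66.9, 56.4, 64.4, 95.2 and 414 CPM in D2 replicates 1 to 5. D2 Resilient replicate 5 was far above the other D2 libraries and just below the lowest D1 library, so the classes did not overlap (D1 minus D2 1.85 in log2, SE 0.44, edgeR adjusted p 0.00858). Without that library the log2 difference of Drd1 was 2.84 (edgeR adjusted p 6.62e-07). Pdyn, which encodes the dynorphin precursor (ENSMUSG00000027400, chromosome 2, 129686565 to 129699844), was at 603, 617, 543, 690.1 and 536 CPM in D1 and at 39.2, 33.5, 40.9, 89.4 and 434 CPM in D2. Its pattern had the same high D2 replicate 5, and the log2 difference was 2.23 with it (SE 0.57, edgeR adjusted p 0.0147) and 3.57 without it (edgeR adjusted p 3.75e-06). Tac1, the substance P precursor gene, was at 879, 843, 790.0, 912 and 988 CPM in D1 and at 224, 237, 209, 229 and 792 CPM in D2. For Tac1, D2 replicate 5 lay just inside the D1 range, and the log2 difference was 1.38 with it (SE 0.33, edgeR adjusted p 0.0085) and 1.99 without it (edgeR adjusted p 7.44e-06).

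The 3 D2 markers were low in all 5 D1 libraries and lower in D2 replicate 5 than in the other D2 libraries. Drd2, the D2 dopamine receptor gene (ENSMUSG00000032259, chromosome 9, 49340627 to 49408177), was at 67.4, 80.1, 78.7, 64.0 and 106 CPM in D1 and at 447, 415, 450.0, 498 and 205 CPM in D2. Adora2a, the adenosine A2A receptor gene (ENSMUSG00000020178, chromosome 10, 75316877 to 75334784), was at 134, 168, 165, 139 and 227 CPM in D1 and at 1089, 1029.9, 1197, 1133 and 491 CPM in D2. Penk, the enkephalin precursor gene (ENSMUSG00000045573, chromosome 4, 4133531 to 4138819), was at 1080.4, 1244, 1524, 1112 and 2352 CPM in D1 and at 10665, 8638, 8235, 7888 and 4038 CPM in D2. The classes did not overlap for any of the 3. The log2 differences were -2.35 for Drd2, -2.57 for Adora2a and -2.43 for Penk (edgeR adjusted p 7.52e-07, 3.33e-07 and 1.15e-07), and without D2 replicate 5 they were -2.50, -2.72 and -2.58. Exons of a gene on the opposite strand cover 14.3% of the exons of Penk, and the counting was not stated to use strand.

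**Figure D1:**
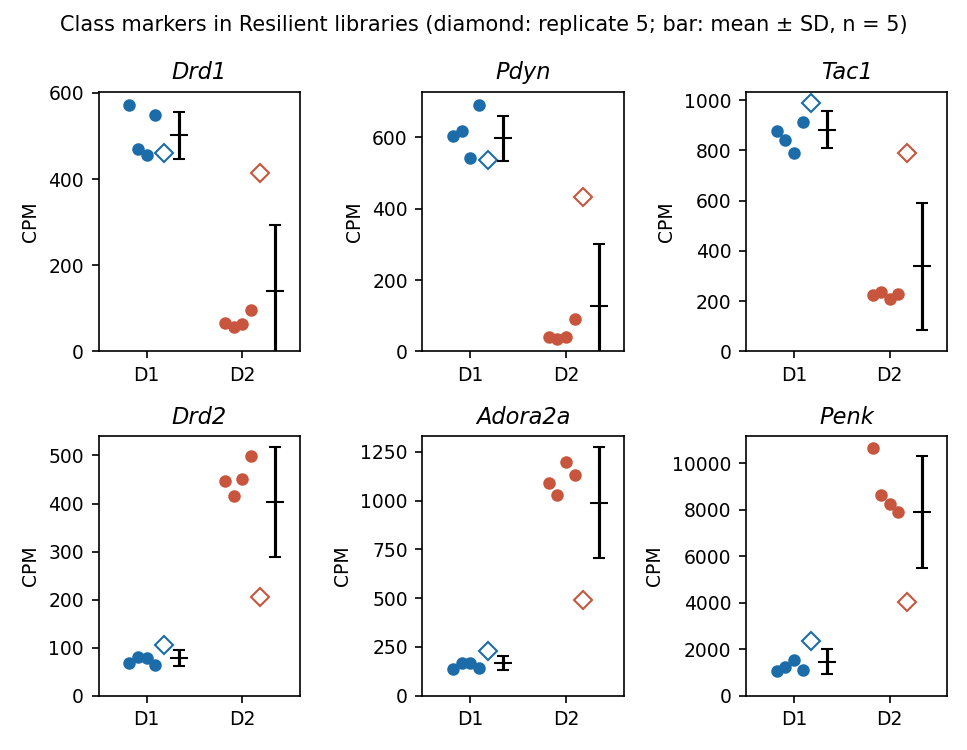
CPM of the 6 class markers in each Resilient library, with D1 in blue and D2 in red. Circles are replicates 1 to 4, diamonds are replicate 5, and the bar beside each class is the mean ± SD (n = 5), cut at 0. D2 replicate 5 lies at 414 CPM for Drd1 and 792 CPM for Tac1, beside the D1 libraries, and midway or lower for Drd2, Adora2a and Penk.

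D2 Resilient replicate 5 was between the classes for much of the transcriptome, but not to the same degree for all genes. A position was computed for it in each gene called without it, as the share of the distance from the mean of the other 4 D2 libraries (0%) to the D1 mean (100%). The median position was 59.7% over 1449 genes. It was 79.8% over 9 D1 class genes, 66.7% over 9 D2 class genes, 83.8% over 10 astrocyte genes and 64.4% over 13 endothelial genes. It was lower for GABA interneuron genes (24.8% over 7 genes) and potassium channels (13.7% over 13 genes), and it was -17.3% over 6 genes of cortical excitatory neurons. On the 642 genes higher in D1 the median was 34.4%, and on the 807 higher in D2 it was 72.4%. D1 Resilient replicate 5, measured the same way toward D2, lay at 14.3% in the median over 1196 genes called without it. It lay at 40.4% on the 574 genes higher in D1 and at 2.16% on the 622 higher in D2. Because the genes were called on the other libraries, a library left out can fall toward the other class by that choice alone. No other library was measured in this way, so the part of that choice in the positions of both replicate 5 libraries was not tested. Across all genes tested, the counts of D2 replicate 5 had a Spearman rho of 0.978 to 0.980 with the D1 libraries and of 0.974 to 0.979 with the other D2 libraries. D1 libraries and D2 replicates 1 to 4 had a rho of 0.963 to 0.972. The library was kept, as labelled, in the values that follow, and a list's count of called members is given both ways wherever leaving the library out changes it.

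Between the classes, 1288 of 19368 genes tested differed (6.65%), of which 532 were higher in D1 (2.75%) and 756 were higher in D2 (3.9%), at an adjusted p under 0.05 by edgeR's quasi-likelihood test. Without D2 replicate 5 the count was 1453 (7.34% of 19809 tested), 643 of them toward D1 (3.25%) and 810 toward D2 (4.09%), and 1227 of the 1288 genes remained called in the same direction. The libraries of the classes did not overlap for 1878 genes (9.7%), with D1 above for 908 (4.69%) and D2 above for 970 (5.01%). Among the called genes the libraries did not overlap for 433 of the 532 and 579 of the 756. The sides differed in shape. Genes higher in D1 had a median log2 difference of 0.67 in absolute size, and 151 of them (28.4%) differed at least 2-fold, at a median level of 42.5 CPM in D1. Genes higher in D2 had a median of 1.78, and 558 of them (73.8%) differed at least 2-fold, at a median level of 5.95 CPM in D2. Of the called genes with at least 5 CPM in the higher class, 498 were higher in D1 and 418 were higher in D2.

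**Figure D2:**
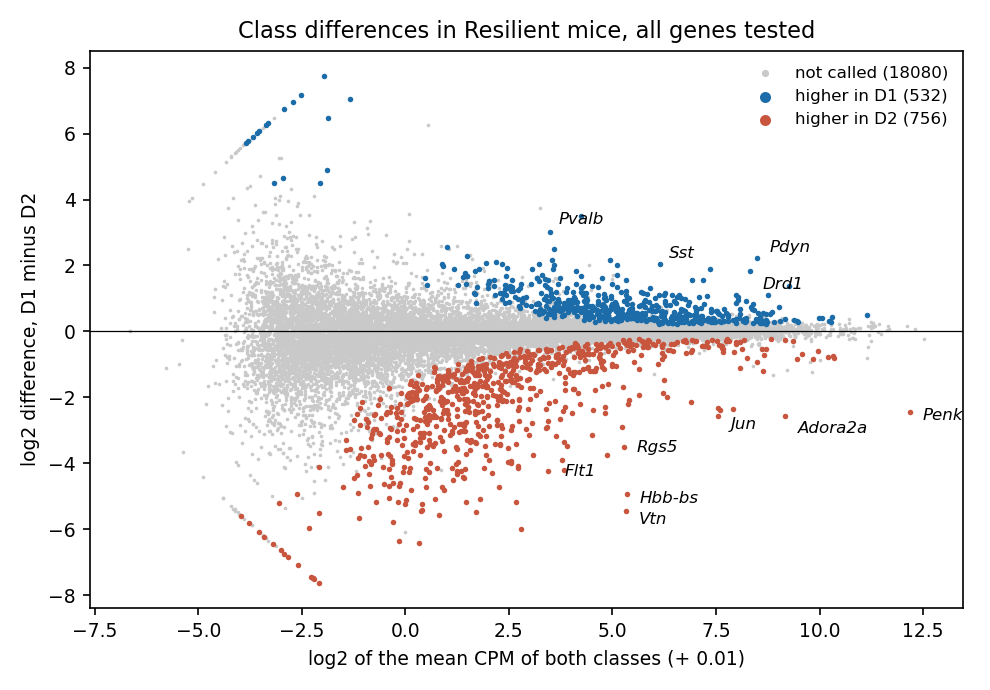
Each point is 1 of the 19368 genes tested, with the log2 of its mean CPM on the x axis and its log2 difference, D1 minus D2, on the y axis; blue points are the 532 genes called higher in D1, red points the 756 called higher in D2 and grey points the 18080 not called. The red points reach further from 0 and spread to lower levels than the blue ones, and the straight lines of points at the left are genes with no counts in 1 class, whose fitted difference is not a measured size.

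Among the genes with the smallest adjusted p on the D1 side were channel, receptor and neuropeptide genes. Efhd2, which encodes the calcium-binding protein swiprosin-1 (ENSMUSG00000040659, chromosome 4, 141858142 to 141874920), was at 136, 161, 123, 140.4 and 109.9 CPM in D1 and at 47.1, 79.6, 69.7, 70.9 and 64.2 CPM in D2. All 5 D1 libraries were above all 5 D2 libraries (D1 minus D2 1.02 in log2, SE 0.13, edgeR adjusted p 1.38e-06). Kcnc2, a Kv3 potassium channel gene (ENSMUSG00000035681, chromosome 10, 112271121 to 112467024), was at 52.7, 51.7, 53.6, 65.3 and 52.6 CPM in D1 and at 10.6, 8.54, 12.4, 15.2 and 21.2 CPM in D2 (D1 minus D2 2.02 in log2, SE 0.26, edgeR adjusted p 4.8e-06). Here too the classes did not overlap, with D2 replicate 5 the highest of its class. Kit, a receptor tyrosine kinase gene of interneurons, had a log2 difference of 1.89 (edgeR adjusted p 3.78e-06). Elfn1, a postsynaptic adhesion gene known from somatostatin interneurons, had one of 1.63 (edgeR adjusted p 8.01e-06). The other genes named by this rule were Tmem151b, Ube2ql1, Oxtr, Npy, Gabbr2 and Gfra2, with log2 differences of 0.74, 1.05, 1.91, 1.70, 0.80 and 1.04. By size, at 5 CPM or more, the leading genes were Jund, Pvalb, Crhbp, Pdyn and Vip. The difference of Jund was set by 1 library, D1 replicate 2, at 152 CPM against at most 12.7 CPM in the other D1 libraries.

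On the D2 side the genes with the smallest adjusted p were mostly genes of blood vessels and blood cells. Ly6a, an endothelial surface antigen gene (ENSMUSG00000075602, chromosome 15, 74994877 to 74998031), was at 2.55, 2.48, 2.63, 2.23 and 2.60 CPM in D1 and at 24.2, 25.3, 27.4, 24.8 and 10.96 CPM in D2. Rgs5, a pericyte gene (ENSMUSG00000026678, chromosome 1, 169655501 to 169695813), was at 6.49, 6.50, 6.06, 4.92 and 7.54 CPM in D1 and at 71.8, 103, 80.4, 68.3 and 36.8 CPM in D2. For both, every D2 library was above every D1 library and D2 replicate 5 was the lowest of its class (D1 minus D2 -3.17 in log2, SE 0.23, edgeR adjusted p 1.68e-10 for Ly6a, and D1 minus D2 -3.51 in log2, SE 0.26, edgeR adjusted p 4.13e-10 for Rgs5). Ly6c1, Emcn, Adgrl4, Flt1 and Pecam1, all known from endothelium, had log2 differences of -3.36, -4.45, -3.99, -3.74 and -3.13. The haemoglobin gene Hbb-bt had -5.17, and Apcdd1, a Wnt inhibitor gene, had -2.40. Ly6a and Ly6c1, and the haemoglobin genes, have near-identical family members, so their reads may be split among them. By size, at 5 CPM or more, the leading genes were Rpl17-ps8, Pglyrp1, Vtn, Hbb-bt and Kcnj8. Rpl17-ps8 is a pseudogene that can share reads with its parent, and it was at 0.339, 0.121, 30.6, 0.250 and 36.8 CPM in the D2 libraries, so that 2 libraries set its difference.

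Jun also had one of the smallest adjusted p values on the D2 side. It encodes an AP-1 transcription factor and is an immediate early gene (ENSMUSG00000052684, chromosome 4, 95049034 to 95052222). It was at 48.1, 61.2, 57.8, 52.9 and 49.6 CPM in D1 and at 386, 343, 401, 323 and 145 CPM in D2. The lowest D2 library, replicate 5, was above every D1 library (D1 minus D2 -2.57 in log2, SE 0.21, edgeR adjusted p 3.19e-09). In Control mice Jun ranged over 50.2 to 60.7 CPM in D1 and 201 to 424 CPM in D2, and in Susceptible mice over 47.7 to 97.3 and 351 to 439.5 CPM. Its class difference was -2.64 in Control and -2.58 in Susceptible on the log2 scale, and the difference between conditions was 0.076 against Control and 0.012 against Susceptible (edgeR adjusted p 1 and 0.991).

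Genes of vessels, blood and glia were all on the D2 side where they were called. Of all genes tested, 3.9% were called higher in D2. The 13 endothelial genes were 0 higher in D1 and 13 higher in D2 of 13 tested, with a median log2 difference of -3.36 beside -0.00 over all genes tested. Their summed level was 38.7, 38.3, 35.7, 33.7 and 33.3 CPM in D1 replicates 1 to 5 and 288, 322, 353, 324 and 121 CPM in D2. Mural cell genes were 0 higher in D1 and 7 higher in D2 of 10 tested (median -3.87), and their sum was 16.1, 14.2, 14.4, 14.0 and 17.3 CPM in D1 and 169, 264, 215, 199 and 102 CPM in D2. Vtn, a pericyte gene for vitronectin, was at 1.86, 1.49, 1.74, 1.74 and 2.05 CPM in D1 and 60.4, 109, 91.8, 87.5 and 42.0 CPM in D2 (D1 minus D2 -5.46 in log2, SE 0.55, edgeR adjusted p 2.84e-07). All 5 blood cell genes were called higher in D2 (median -4.94), with sums of 3.92, 3.40, 3.08, 6.02 and 5.98 CPM in D1 and 148, 114, 138, 142 and 73.5 CPM in D2. For these 3 lists the sums of the classes did not overlap, and D2 replicate 5 was the lowest D2 library. The part of such cells in the other genes higher in D2 was not tested.

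Astrocyte genes were 0 higher in D1 and 9 higher in D2 of 11 tested, or 0 and 10 without D2 replicate 5 (median with all libraries -1.71). Their sum was 469, 489.8, 445, 467 and 386 CPM in D1 and 820.2, 869, 883, 888 and 448 CPM in D2, and D2 replicate 5 lay among the D1 libraries. Gfap, the astrocyte filament gene, was at 2.08, 2.61, 2.58, 2.59 and 2.40 CPM in D1 and 19.4, 21.2, 22.9, 24.5 and 5.27 CPM in D2 (D1 minus D2 -2.93 in log2, SE 0.41, edgeR adjusted p 1.56e-05). Slc1a3, a glutamate transporter gene of astrocytes, had a log2 difference of -2.19 (edgeR adjusted p 8.96e-05). Oligodendrocyte genes were 0 higher in D1 and 4 higher in D2 of 12 tested, or 0 and 6 without D2 replicate 5 (median with all libraries -0.90), with Mal, Mog, Cldn11 and Cnp the members called. Their sum was 525, 408, 583, 503 and 537 CPM in D1 and 1203, 904, 875, 1006 and 469 CPM in D2, again with D2 replicate 5 among the D1 libraries. Oligodendrocyte precursor genes were 0 higher in D1 and 3 higher in D2 of 6 tested, or 0 and 4 without D2 replicate 5, and microglia genes 0 higher in D1 and 4 higher in D2 of 11 tested, or 0 and 3 without D2 replicate 5, with medians over all libraries of -0.998 and -1.12. Fibroblast and meningeal genes were 0 higher in D1 and 2 higher in D2 of 6 tested, or 0 and 3 without D2 replicate 5. The 6 ependymal and choroid plexus genes had 1 member called, Ttr, which was at 1.97, 37.4, 11.2, 2.02 and 2.83 CPM in D2 and so was set mainly by replicate 2 (log2 difference -3.93, and -2.61 without it, edgeR adjusted p 0.233). Among the 5 epidermal genes Dmkn alone was called (log2 difference -0.77), and the sums overlapped.

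Genes of other neurons were on the D1 side where they were called. Of all genes tested, 2.75% were called higher in D1. GABA interneuron genes were 6 higher in D1 and 0 higher in D2 of 11 tested, or 7 and 0 without D2 replicate 5 (median with all libraries 1.85), and no member was at 0 in all libraries of a class. Their sum was 413, 381, 466, 490.4 and 513 CPM in D1 and 129, 125, 137, 160.2 and 232 CPM in D2, without overlap. Pvalb, the parvalbumin gene of fast-spiking interneurons, was at 15.7, 13.5, 17.0, 30.2 and 24.2 CPM in D1 and 1.39, 1.29, 2.01, 2.44 and 5.43 CPM in D2 (D1 minus D2 3.01 in log2, SE 0.50, edgeR adjusted p 0.000142). Lhx6, a transcription factor gene of interneurons from the medial ganglionic eminence, had a log2 difference of 2.06 (edgeR adjusted p 0.000141). Of the 11 members, Nos1, Th, Pthlh, Chrna3 and Calb2 were not called. The list also had 2 members with a negative log2 difference, the lowest -0.91, and for 1 member every D2 library was above every D1 library. In Control and in Susceptible mice 1 member was called higher in D2. Genes of cortical excitatory neurons were 7 higher in D1 and 0 higher in D2 of 10 tested, or 6 and 0 without D2 replicate 5 (median with all libraries 1.02). Their sum was 917, 898, 877, 848 and 663 CPM in D1 and 197, 549.8, 462, 447 and 326 CPM in D2, with every D1 library above every D2 library. Slc17a7, the vesicular glutamate transporter gene of cortical neurons, was at 652, 638, 628, 604 and 458 CPM in D1 and 119, 389, 323, 317 and 229 CPM in D2 (D1 minus D2 1.11 in log2, SE 0.22, edgeR adjusted p 0.0012). The lowest D1 library was replicate 5 and the lowest D2 library was replicate 1. Tbr1 and Neurod6, transcription factor genes of cortical projection neurons, had log2 differences of 1.15 and 1.36. Of the 6 cholinergic interneuron genes edgeR called 0 with or without D2 replicate 5 (0 at an unadjusted p under 0.05, 0 by DESeq2 and 0 by voom), and their sum was 4.42, 8.14, 6.64, 4.97 and 8.68 CPM in D1 and 4.18, 2.46, 2.98, 4.19 and 16.5 CPM in D2, where replicate 5 was the highest of all 10 libraries.

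**Figure D3:**
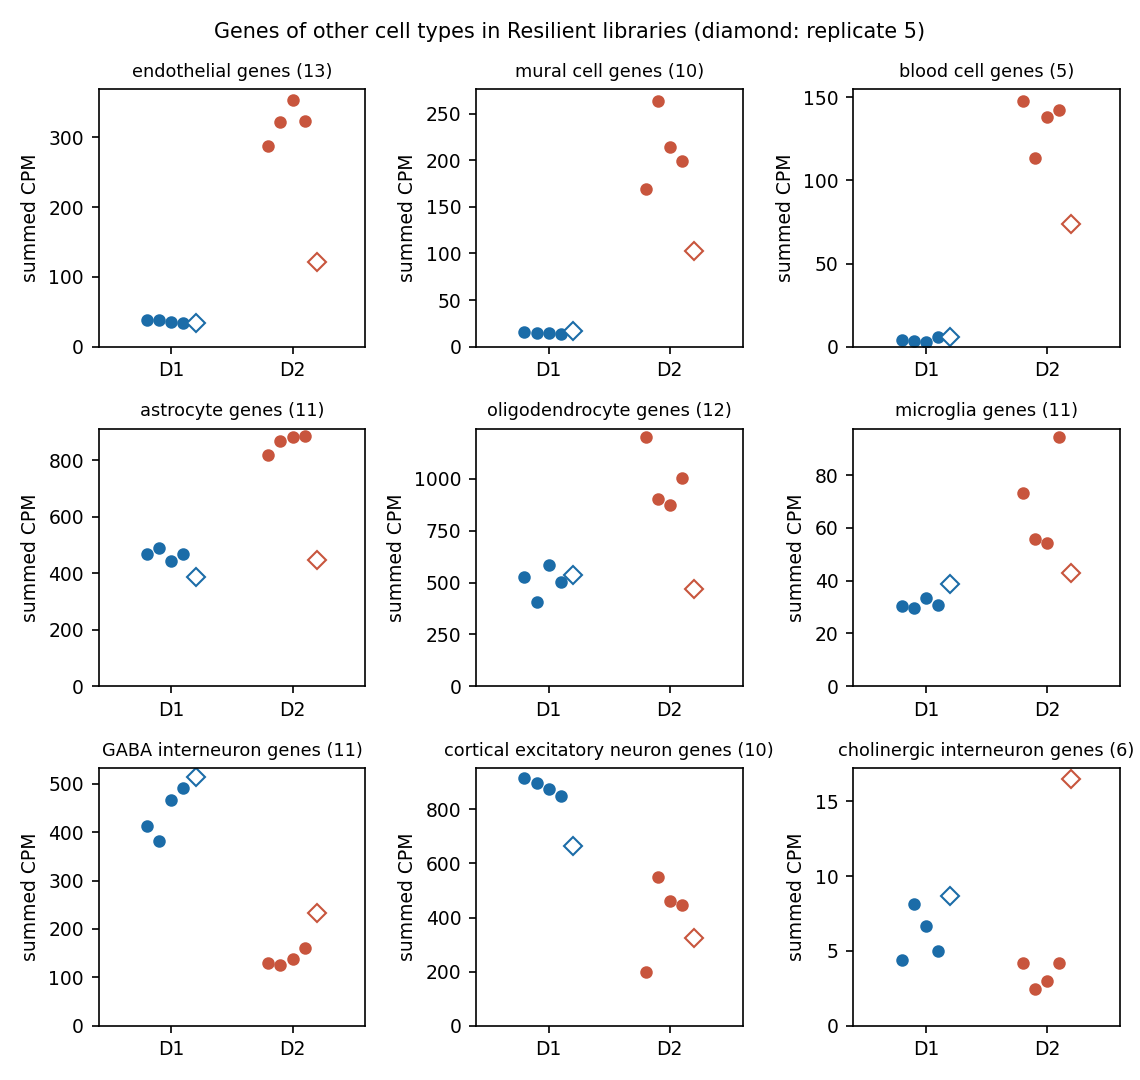
Summed CPM of 9 lists of genes of other cell types in each Resilient library (D1 blue, D2 red, diamonds replicate 5; the number of genes summed is in each title). Endothelial, mural and blood cell sums are higher in all 5 D2 libraries, GABA interneuron and cortical sums are higher in all 5 D1 libraries, and D2 replicate 5 lies toward or among the D1 libraries for the glial and vascular lists.

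The lists of class identity genes hold the 6 markers too. D1 class genes were 6 higher in D1 and 0 higher in D2 of 10 tested, or 9 and 0 without D2 replicate 5, with medians of 1.64 and 2.38. Beyond Drd1, Pdyn and Tac1, 3 of 7 were called, and 6 of 7 without D2 replicate 5. Slc35d3, a transporter gene linked to D1 receptor traffic, was at 125, 115, 95.2, 125 and 110.5 CPM in D1 and 12.9, 12.2, 13.3, 18.4 and 82.3 CPM in D2 (D1 minus D2 2.04 in log2, SE 0.45, edgeR adjusted p 0.00423). Sfxn1, a mitochondrial serine carrier gene, and Zfp521, a zinc finger gene, had log2 differences of 1.57 and 1.70. Isl1, a transcription factor gene of direct pathway neurons, was at 33.7, 30.7, 36.1, 34.5 and 39.6 CPM in D1 and 2.49, 1.70, 3.90, 5.87 and 29.1 CPM in D2. It was not called with all libraries (D1 minus D2 2.02 in log2, SE 0.63, edgeR adjusted p 0.0531) and was called without D2 replicate 5 (log2 difference 3.34, edgeR adjusted p 0.000161). The muscarinic receptor gene Chrm4 and the transcription factor gene Ebf1 likewise had an edgeR adjusted p of 0.18 and 0.073 with that library and of 0.024 and 0.000845 without it. Eya1 was called in neither.

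D2 class genes were 0 higher in D1 and 9 higher in D2 of 10 tested (median -1.71), 9 of 10 also without D2 replicate 5, and 6 of 7 beyond Drd2, Adora2a and Penk. The orphan receptor gene Gpr6 (ENSMUSG00000046922, chromosome 10, 41069977 to 41072285) was at 36.8, 54.2, 42.0, 39.5 and 46.4 CPM in D1 and 218, 224, 214, 212 and 100.5 CPM in D2 (D1 minus D2 -2.15 in log2, SE 0.26, edgeR adjusted p 2.18e-06). Sp9, a zinc finger transcription factor gene needed for D2 neurons, was at 14.2, 19.8, 21.8, 13.0 and 22.3 CPM in D1 and 69.7, 59.9, 65.7, 62.3 and 31.9 CPM in D2 (D1 minus D2 -1.67 in log2, SE 0.22, edgeR adjusted p 4.8e-06). The classes did not overlap for either gene. Adk, the adenosine kinase gene, had a log2 difference of -0.92, and the kainate receptor gene Grik3, at -0.64, was not called. Of the genes that both MSN classes share, 1 of 17 was called (5.88%, near the 6.65% of all genes tested, median -0.15). Ppp1r1b, which encodes DARPP-32, and the GABA synthesis genes Gad1 and Gad2 had log2 differences of -0.092, 0.0053 and -0.017, none called. Of 11 striosome and eccentric MSN genes edgeR called 0 (3 at an unadjusted p under 0.05, 0 by DESeq2 and 4 by voom), and 1 without D2 replicate 5.

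Striatal transcription factors were 3 higher in D1 and 3 higher in D2 of 40 tested, or 5 and 3 without D2 replicate 5. With all libraries 15% were called, beside 6.65% of all genes tested. Nfix, a nuclear factor I gene, was at 68.0, 84.2, 75.8, 68.3 and 54.5 CPM in D1 and 26.8, 46.4, 40.4, 48.0 and 29.1 CPM in D2 (D1 minus D2 0.88 in log2, SE 0.14, edgeR adjusted p 4.79e-05). Npas1 and Foxp4 were also higher in D1, by 2.57 and 0.60. Id4, an inhibitor of basic helix-loop-helix factors, was at 285, 177, 190.3, 264 and 313 CPM in D1 and 635, 403, 464, 449 and 403 CPM in D2 (D1 minus D2 -0.94 in log2, SE 0.16, edgeR adjusted p 0.000141), and the homeobox gene Six3 was higher in D2 with a log2 difference of -0.45. The classes did not overlap for Nfix and Id4, and they did for Foxp4 and Six3.

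Of the neuropeptide genes called, all but Penk were higher in D1. The precursors were 10 higher in D1 and 1 higher in D2 of 25 tested, or 12 and 1 without D2 replicate 5 (median with all libraries 0.57). With all libraries 44% were called, beside 6.65% of all genes tested. Sst, the somatostatin gene (ENSMUSG00000004366, chromosome 16, 23889573 to 23890958), was at 224, 214, 257, 285 and 317 CPM in D1 and 47.2, 46.4, 52.0, 67.4 and 133 CPM in D2 (D1 minus D2 1.91 in log2, SE 0.28, edgeR adjusted p 4.53e-05). Npy, the neuropeptide Y gene (ENSMUSG00000029819, chromosome 6, 49822710 to 49829507), was at 56.7, 37.2, 57.9, 51.8 and 60.1 CPM in D1 and 13.2, 14.7, 13.6, 17.7 and 22.3 CPM in D2 (D1 minus D2 1.70 in log2, SE 0.23, edgeR adjusted p 1.01e-05). Vip, the vasoactive intestinal peptide gene (ENSMUSG00000019772, chromosome 10, 5639218 to 5647617), was at 12.9, 12.4, 23.8, 27.8 and 18.2 CPM in D1 and 2.68, 2.91, 3.76, 4.37 and 7.38 CPM in D2 (D1 minus D2 2.17 in log2, SE 0.35, edgeR adjusted p 9.88e-05). Each of the 3 peptides is known from interneurons, each showed no overlap of the classes, and D2 replicate 5 was the highest D2 library for each. Cck, the cholecystokinin gene, Tac2, the neurokinin B gene, and Chga, the chromogranin A gene, had log2 differences of 0.98, 1.43 and 0.57, and Cort, a low gene, had 2.29. Gal, the galanin gene, held 128 counts over the D1 libraries and 0 over the D2 libraries, at least 46.0-fold higher in D1 per gene count sequenced, against a floor of 3 counts over the group. With Gal at that bound the list's median was the same, 0.57. Cartpt and Nts were among the 14 members not called, as were Crh and Pnoc, which were called without D2 replicate 5 (edgeR adjusted p 0.00849 and 0.00695). The summed GABA interneuron and cortical neuron genes given above were also higher in D1, and the interneuron sum itself holds Sst, Npy and Vip. In D1 replicate 5, Sst and Npy were the highest of D1, and Vip, at 18.2 CPM, was within the range of the other D1 libraries. The cortical sum of that library, 663 CPM, was the lowest of D1. The part of those cells in the peptide differences was not tested.

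Promoters of 4 of these genes show a motif that occurs on both sides of the comparison. The 250 bases before the RefSeq start of Tac1, Sst and Vip, higher in D1, and of Gpr6, higher in D2, are printed because they hold CGTCA, the short form of the cAMP response element, or TGACG, the same letters on the other strand, in capitals. The genes were picked after their values were seen. Sequences are RefSeq's for GRCm38.p6, read along each gene's own strand, 5′ to 3′.
Tac1, chr6:7554811-7555060, plus strand: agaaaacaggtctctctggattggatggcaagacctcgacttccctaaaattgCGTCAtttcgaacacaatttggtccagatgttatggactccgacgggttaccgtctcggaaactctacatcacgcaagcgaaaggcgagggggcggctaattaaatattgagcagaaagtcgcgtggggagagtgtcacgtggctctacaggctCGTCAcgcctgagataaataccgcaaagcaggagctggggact
Sst, chr16:23890845-23891094, minus strand: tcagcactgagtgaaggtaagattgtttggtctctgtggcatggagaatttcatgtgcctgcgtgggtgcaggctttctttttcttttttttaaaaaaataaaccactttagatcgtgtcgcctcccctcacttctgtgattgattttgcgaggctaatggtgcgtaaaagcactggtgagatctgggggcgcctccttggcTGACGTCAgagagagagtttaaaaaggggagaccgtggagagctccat
Vip, chr10:5638968-5639217, plus strand: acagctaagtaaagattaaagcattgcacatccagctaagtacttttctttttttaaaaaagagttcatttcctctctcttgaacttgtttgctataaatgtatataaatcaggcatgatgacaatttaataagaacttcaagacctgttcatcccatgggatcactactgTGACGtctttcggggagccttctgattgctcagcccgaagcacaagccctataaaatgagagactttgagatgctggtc
Gpr6, chr10:41072291-41072540, minus strand: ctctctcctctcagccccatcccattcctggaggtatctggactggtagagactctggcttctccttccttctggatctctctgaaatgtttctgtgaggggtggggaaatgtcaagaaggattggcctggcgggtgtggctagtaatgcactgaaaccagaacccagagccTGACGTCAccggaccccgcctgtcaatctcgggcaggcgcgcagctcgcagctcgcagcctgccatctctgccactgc
Short forms that overlap in Sst and in Gpr6 form the full element TGACGTCA, which reads the same on both strands. The full element was in 1.55% of 32851 mouse promoters of this length, in 14 of 512 promoters of genes called higher in D1 (2.73%) and in 15 of 720 of genes called higher in D2 (2.08%). The short form was in 17.8%, 21.5% and 18.1% of them. A match describes letters in this window and does not show that a factor binds there.

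Among the neuropeptide receptors, members were 5 higher in D1 and 2 higher in D2 of 31 tested, or 6 and 3 without D2 replicate 5 (median with all libraries 0.46). With all libraries 22.6% were called, beside 6.65% of all genes tested. Oxtr, the oxytocin receptor gene (ENSMUSG00000049112, chromosome 6, 112473683 to 112489943), was at 13.6, 12.1, 15.8, 12.9 and 11.8 CPM in D1 and 1.92, 2.63, 3.88, 3.47 and 5.79 CPM in D2. Every D1 library was above every D2 library (D1 minus D2 1.91 in log2, SE 0.26, edgeR adjusted p 9.71e-06). The somatostatin receptor genes Sstr2 and Sstr3, the nociceptin receptor gene Oprl1 and the cholecystokinin receptor gene Cckbr were also higher in D1, by 1.43, 0.76, 0.53 and 0.58, and Sstr3 was not called without D2 replicate 5 (edgeR adjusted p 0.0684). Calcr, the calcitonin receptor gene, was low and higher in D2, at 1.54, 0.948, 3.25, 0.490 and 3.23 CPM in D1 and 10.6, 4.99, 5.29, 3.96 and 7.28 CPM in D2 (D1 minus D2 -1.77 in log2, SE 0.43, edgeR adjusted p 0.00761). Ntsr2, a neurotensin receptor gene also known from astrocytes, had a log2 difference of -1.27 (edgeR adjusted p 0.000202). The opioid receptor genes Oprm1, Oprk1 and Oprd1 were not called (log2 differences 0.33, 0.34 and -1.20). Crhbp, which encodes the binding protein of corticotropin-releasing hormone, was at 15.7, 22.6, 23.5, 20.4 and 19.8 CPM in D1 and 2.60, 2.53, 2.43, 4.47 and 6.07 CPM in D2 (D1 minus D2 2.49 in log2, SE 0.42, edgeR adjusted p 0.00016).

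Receptors for monoamines, acetylcholine, adenosine and cannabinoids were 5 higher in D1 and 5 higher in D2 of 41 tested, or 9 and 5 without D2 replicate 5. With all libraries 24.4% were called, beside 6.65% of all genes tested. Beside Drd1, the D1 side held Cnr1, Htr1a, Chrm3 and Chrm2. Cnr1, the cannabinoid receptor gene (ENSMUSG00000044288, chromosome 4, 33924593 to 33948831), was at 127, 113, 123, 131 and 99.7 CPM in D1 and 53.9, 49.6, 41.4, 49.1 and 79.7 CPM in D2 (D1 minus D2 1.12 in log2, SE 0.18, edgeR adjusted p 6.06e-05). Htr1a, a serotonin receptor gene that couples to inhibitory G proteins, was at 16.1, 13.2, 15.1, 14.2 and 10.6 CPM in D1 and 2.79, 5.77, 5.61, 4.03 and 5.55 CPM in D2 (D1 minus D2 1.54 in log2, SE 0.22, edgeR adjusted p 1.39e-05). The classes did not overlap for either. The muscarinic receptor genes Chrm3 and Chrm2 had log2 differences of 0.81 and 1.16. The D2 side included Drd2, Adora2a, Gpr6 and the orphan receptor gene Gpr149, the last with a log2 difference of -0.58.

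In the cAMP pathway, genes of G proteins, cyclases, phosphodiesterases and their partners were 8 higher in D1 and 4 higher in D2 of 60 tested, or 8 and 3 without D2 replicate 5 (median with all libraries 0.0054). With all libraries 20% were called, beside 6.65% of all genes tested. Adcy2, an adenylyl cyclase gene, was at 52.2, 61.8, 61.9, 58.6 and 44.9 CPM in D1 and 19.8, 26.4, 27.8, 26.3 and 38.8 CPM in D2 (D1 minus D2 1.01 in log2, SE 0.14, edgeR adjusted p 1.48e-05). D2 replicate 5 was the highest D2 library and did not reach the D1 range. The cyclase genes Adcy8 and Adcy1 were higher in D1 by 1.35 and 0.53, the latter not without D2 replicate 5 (edgeR adjusted p 0.0709). Adcy5, the main striatal cyclase gene, had a log2 difference of -0.072 and was not called. Gng2, a G protein gamma subunit gene, had a log2 difference of 1.16 (edgeR adjusted p 0.000106), and exons on the opposite strand cover 20.4% of its exons. On the D2 side, Gnb5, a G protein beta subunit gene that pairs with RGS proteins, was at 346, 341, 328, 348 and 347 CPM in D1 and 511, 484, 518, 494 and 444 CPM in D2 (D1 minus D2 -0.52 in log2, SE 0.076, edgeR adjusted p 1.91e-05). Arpp19, a cAMP-regulated phosphoprotein gene, and Pde4b, a phosphodiesterase gene, had log2 differences of -0.69 and -0.40. Rgs2 was called with all libraries (edgeR adjusted p 0.0393) and not without D2 replicate 5 (edgeR adjusted p 0.114).

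Glutamate receptor genes were 4 higher in D1 and 0 higher in D2 of 24 tested, or 5 and 1 without D2 replicate 5 (median with all libraries 0.10). With all libraries 16.7% were called, beside 6.65% of all genes tested. The 4 called with all libraries were subunits of the less common kinds. Grin3a, an NMDA receptor subunit gene, was at 35.4, 25.9, 41.1, 26.8 and 34.9 CPM in D1 and 7.65, 11.6, 11.8, 11.8 and 20.6 CPM in D2 (D1 minus D2 1.37 in log2, SE 0.24, edgeR adjusted p 0.000196). Grin2d, an NMDA subunit gene of interneurons, and the kainate receptor genes Grik1 and Grik4 had log2 differences of 1.64, 1.67 and 0.62. The main subunit genes Gria1, Gria2, Grin1, Grin2a and Grin2b lay between -0.22 and 0.16, none called. Of 19 genes of GABA receptors and GABA synthesis 1 was called (5.26%, near the 6.65% of all genes tested). That member was Gabbr2, a GABA-B receptor subunit gene. It was at 157, 132, 149, 148 and 132 CPM in D1 and 73.3, 81.9, 85.0, 96.5 and 75.2 CPM in D2, without overlap (D1 minus D2 0.80 in log2, SE 0.11, edgeR adjusted p 1.09e-05).

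Potassium channel genes were 12 higher in D1 and 2 higher in D2 of 49 tested, or 11 and 2 without D2 replicate 5 (median with all libraries 0.17). With all libraries 28.6% were called, beside 6.65% of all genes tested. Of the Kv3 family, known for fast repolarisation, Kcnc1 and Kcnc2 were higher in D1, by 0.68 and 2.02. Kcnj9, a subunit gene of G protein-gated inward rectifiers, was at 87.7, 83.2, 84.9, 89.8 and 70.4 CPM in D1 and 42.8, 56.2, 55.3, 53.7 and 55.4 CPM in D2 (D1 minus D2 0.66 in log2, SE 0.093, edgeR adjusted p 1.3e-05). Its partner Kcnj3 was higher in D1 by 0.63, as were the potassium leak channel genes Kcnk9 and Kcnk3, by 0.83 and 0.75. Kcnk2, another leak channel gene, was higher in D2, at 175, 158, 164, 164 and 181 CPM in D1 and 262, 224, 227, 251 and 190.2 CPM in D2 (D1 minus D2 -0.46 in log2, SE 0.12, edgeR adjusted p 0.0148), and the voltage-gated channel gene Kcna4 was higher in D2 with a log2 difference of -0.30. Calcium and sodium channel and exchanger genes were 5 higher in D1 and 1 higher in D2 of 38 tested (15.8% called). Slc24a3, a sodium-calcium exchanger gene, Cacna1g, a T-type calcium channel gene, Cacnb3 and Scn1a were among those higher in D1, by 0.62, 0.87, 0.40 and 0.37. Cacna2d2, a calcium channel accessory subunit gene, was higher in D2 with a log2 difference of -0.60 (edgeR adjusted p 0.0307). Kcnc1, Kcnc2, Grin2d and Grin3a are also expressed by interneurons, whose summed marker genes were also higher in D1, and their part in these differences was not tested.

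Axon guidance genes were 6 higher in D1 and 2 higher in D2 of 55 tested, or 7 and 2 without D2 replicate 5 (median with all libraries 0.12). With all libraries 14.5% were called, and 16.9% of the cell adhesion genes below, beside 6.65% of all genes tested. Nrp2, a semaphorin receptor gene, was at 56.5, 48.0, 62.4, 42.5 and 51.7 CPM in D1 and 26.5, 27.3, 27.8, 25.7 and 39.2 CPM in D2 (D1 minus D2 0.83 in log2, SE 0.14, edgeR adjusted p 0.000103). Sema5a, Plxna1, Slit1, Plxnc1 and Sema4f were higher in D1 by 0.97, 0.74, 0.64, 0.45 and 0.40, and the netrin receptor gene Unc5c and the plexin gene Plxnb1 had log2 differences of -0.50 and -0.95. Cell adhesion genes were 9 higher in D1 and 1 higher in D2 of 59 tested, or 10 and 0 without D2 replicate 5 (median with all libraries 0.044), so the 1 call on the D2 side, Adgrl2, was lost without that library. Cdh13, a cadherin gene without a cytoplasmic domain, was at 194, 198, 175, 184 and 168 CPM in D1 and 56.9, 78.4, 83.6, 97.4 and 130.2 CPM in D2 (D1 minus D2 1.04 in log2, SE 0.15, edgeR adjusted p 1.35e-05). Cntnap3, a contactin-associated gene, was at 44.8, 41.1, 43.0, 38.9 and 35.6 CPM in D1 and 5.07, 7.15, 8.39, 10.4 and 35.3 CPM in D2, where replicate 5 was just below the lowest D1 library (D1 minus D2 1.62 in log2, SE 0.40, edgeR adjusted p 0.0109). Clstn2 and Cntnap4 had log2 differences of 0.94 and 1.20.

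Of 20 immediate early genes tested, 3 were called (15%, beside 6.65% of all genes tested), 2 higher in D1 and 1, Jun, higher in D2 (median -0.19). Nr4a2, an orphan nuclear receptor gene, was at 69.1, 37.5, 59.0, 39.8 and 44.8 CPM in D1 and 5.49, 16.4, 11.7, 12.4 and 9.57 CPM in D2, without overlap (D1 minus D2 2.17 in log2, SE 0.34, edgeR adjusted p 7.13e-05). Jund was at 3.34, 152, 2.48, 12.7 and 3.53 CPM in D1 and 3.16, 2.70, 3.44, 3.53 and 2.69 CPM in D2, so that D1 replicate 2 set its difference (D1 minus D2 3.49 in log2, SE 1.07, edgeR adjusted p 0.0485). Without that library it was 0.85 (edgeR adjusted p 0.841). Exons on the opposite strand cover 52.6% of the exons of Jund. Fos was at 8.51, 13.5, 10.6, 13.4 and 10.2 CPM in D1 and 16.5, 16.8, 11.4, 4.56 and 11.2 CPM in D2 (D1 minus D2 -0.10 in log2, SE 0.27, edgeR adjusted p 0.967), and its class difference was 0.93 in Control and 0.92 in Susceptible (edgeR adjusted p 0.0251 and 0.0136). The test of the difference gave -1.03 for Resilient minus Control and -1.02 for Resilient minus Susceptible (edgeR adjusted p 0.85 and 0.29). Of 17 glucocorticoid receptor and target genes, Zbtb16 was higher in D1 by 1.55 (edgeR adjusted p 0.00445), and Sult1a1 and the metallothionein gene Mt2 were higher in D2 (-2.09 and -1.23). Exons on the opposite strand cover 73.5% of those of Mt2. The receptor genes Nr3c1 and Nr3c2 and the target gene Fkbp5 were not called (log2 differences -0.00, -0.19 and -0.084).

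**Figure D4:**
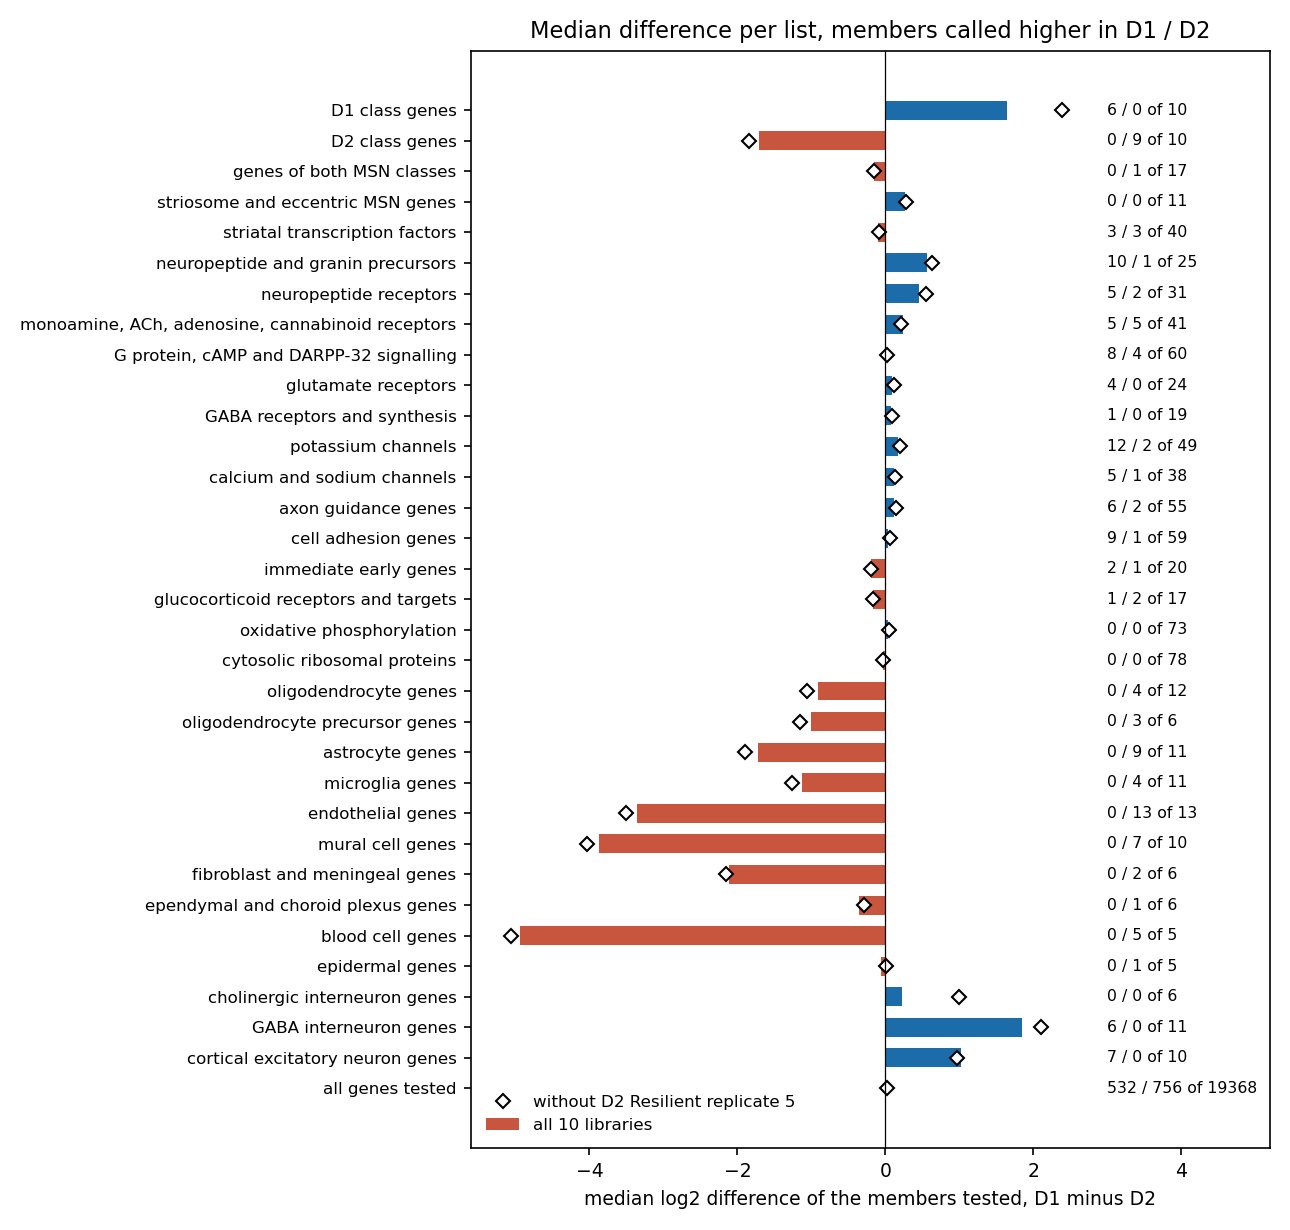
Median log2 difference, D1 minus D2, of the members of each gene list that were tested (bars: all 10 Resilient libraries; open diamonds: without D2 Resilient replicate 5). Numbers at the right are members called higher in D1 / higher in D2 of those tested; the widest bars are those of blood, mural and endothelial genes toward D2 and of GABA interneuron and D1 class genes toward D1.

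No gene of oxidative phosphorylation or of the cytosolic ribosome was called between the classes in Resilient mice. EdgeR called 0 of 73 and 0 of 78, with medians of 0.035 and -0.035, and the same counts without D2 replicate 5. Without replicate 5 of either class, an alternative chosen after seeing the data, edgeR called 0 in each list, with medians of -0.018 and -0.106. In D1 replicate 5 the sums were 14876 CPM for oxidative phosphorylation and 12215.5 CPM for ribosomal proteins. The other D1 Resilient libraries were at 12879 to 13414 and 9831 to 10609 CPM. With all libraries, at an unadjusted p under 0.05 there was 1 gene in each list, with 0 by DESeq2 and 1 by voom. In Control mice the counts were 1 higher in D1 and 28 higher in D2 for oxidative phosphorylation (median -0.31) and 0 and 33 for ribosomal proteins (median -0.35). In Susceptible mice they were 3 and 32 (median -0.22) and 0 and 56 (median -0.38). Leaving out D1 Susceptible replicate 1 and D2 Susceptible replicates 1 and 2, which stood apart in their summary lines or genes detected, gave 0 and 9 (median -0.15) and 0 and 13 (median -0.24). The test of the difference between conditions called 0 members of either list by edgeR. For oxidative phosphorylation 37 of 73 were at an unadjusted edgeR p under 0.05 against Control and 35 against Susceptible, and for ribosomal proteins 31 and 42 of 78. Over all 19368 genes tested the counts were 967 and 2404, which are smaller shares. A difference from the other conditions was thus not shown for any single member, and the lists as a whole were not tested. Rps29, a small ribosomal subunit gene, was at 71.3, 79.9, 71.5, 69.9 and 76.2 CPM in D1 and 52.0, 73.7, 102, 73.7 and 67.1 CPM in D2 of Resilient mice, with overlap (D1 minus D2 0.00 in log2, SE 0.16, edgeR adjusted p 0.999). Its class difference was -1.10 in Control and -0.89 in Susceptible mice, with edgeR adjusted p values of 3.2e-05 and 0.000246. The difference of Resilient from Control was 1.10 (edgeR adjusted p 0.594), and from Susceptible 0.90 (edgeR adjusted p 0.213).

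The class differences of Resilient mice recurred in the other conditions, which share no library with them. In Control, 1608 of 19368 genes were called (8.3%), 679 of them toward D1 (3.51%) and 929 toward D2 (4.8%). In Susceptible, 4621 were called (23.9%), 2033 of them toward D1 (10.5%) and 2588 toward D2 (13.4%), and 915 were called when only those 10 libraries were fitted. Some Susceptible libraries stood apart: in D1 replicate 1 summary lines took 53.3% of the reads and Gm42418 took 54.9% of the gene counts, and D2 replicates 1 and 2 had 15822 and 16525 genes detected. Without these 3, an alternative chosen after seeing the data, 2076 of 20396 genes were called, 1011 toward D1 and 1065 toward D2. The values given for single genes and lists in Susceptible mice include them unless stated. Of the 1288 Resilient calls, 833 were also called in the same direction in Control, which is 64.7% of the Resilient and 51.8% of the Control calls, and none in the opposite direction. In Susceptible 1031 were called in the same direction, 80.0% of the Resilient and 22.3% of the Susceptible calls, and 2 in the opposite direction. Without the 3 Susceptible libraries it was 1005, which is 78.0% of the Resilient and 48.4% of the Susceptible calls, and 0 in the opposite direction. There were 776 genes called in all 3 conditions, 323 higher in D1 and 453 higher in D2. Across the genes tested, which are not independent replicates, log2 class differences in Resilient had a Pearson r of 0.573 with those in Control (Spearman rho 0.474) and 0.452 with those in Susceptible (rho 0.454). There were 198 genes called in Resilient and in neither other condition, and none of them passed the test of a difference from Control (smallest edgeR adjusted p 0.621) or from Susceptible (smallest edgeR adjusted p 0.192).

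Whether the class difference of Resilient mice differed from that of the other conditions was tested for each gene. By edgeR, 0 of 19368 genes (0%) passed for Resilient minus Control (967 at an unadjusted p under 0.05), against 7 by DESeq2, 160 by voom and 12 when only those groups were fitted. For Resilient minus Susceptible 0 passed (2404 at an unadjusted p under 0.05), while DESeq2 called 47, voom 0, and edgeR without D2 Susceptible replicate 3 called 156. Without the 3 Susceptible libraries that stood apart, edgeR called 0 (960 at an unadjusted p under 0.05). The genes with the smallest p against Control, beside Rps29, were Pdzd4, Pcdh20 and Snrnp40. Pdzd4, a PDZ domain gene, had log2 class differences of 0.17 in Resilient and -0.33 in Control (0.50 between them, edgeR adjusted p 0.594). Pcdh20, a protocadherin gene, was at 5.12 to 7.28 CPM in D1 and 5.84 to 7.83 CPM in D2 of Resilient mice, with differences of -0.10 in Resilient and 1.22 in Control (-1.32 between them, edgeR adjusted p 0.594). Snrnp40 was at 12.2, 4.24, 2.33, 0.780 and 4.24 CPM in D2 Resilient, a wide spread, and at 0.356, 0.580, 0.662, 0.617 and 0.702 CPM in D1. Its difference of Resilient from Control was -4.48 (edgeR adjusted p 0.621).

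Against Susceptible, the genes with the smallest p were Nrgn, Lrrc4, Mon2 and Mustn1. Nrgn, the neurogranin gene, whose protein binds calmodulin in dendrites, was at 802, 669, 716, 849 and 971 CPM in D1 and 999, 899, 944, 1186 and 892 CPM in D2 of Resilient mice, with overlap. Its class difference on the log2 scale was -0.30 in Resilient and -1.11 in Susceptible mice, with edgeR adjusted p values of 0.184 and 2.51e-07. The difference between them was 0.81 (edgeR adjusted p 0.192). Lrrc4, a synaptic adhesion gene, and Mon2, a membrane traffic gene, had differences between conditions of 0.61 and -0.53, neither called. Mustn1 had at most 0.762 CPM in any Resilient library, and its levels were too low for a size to be read.

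**Figure D5:**
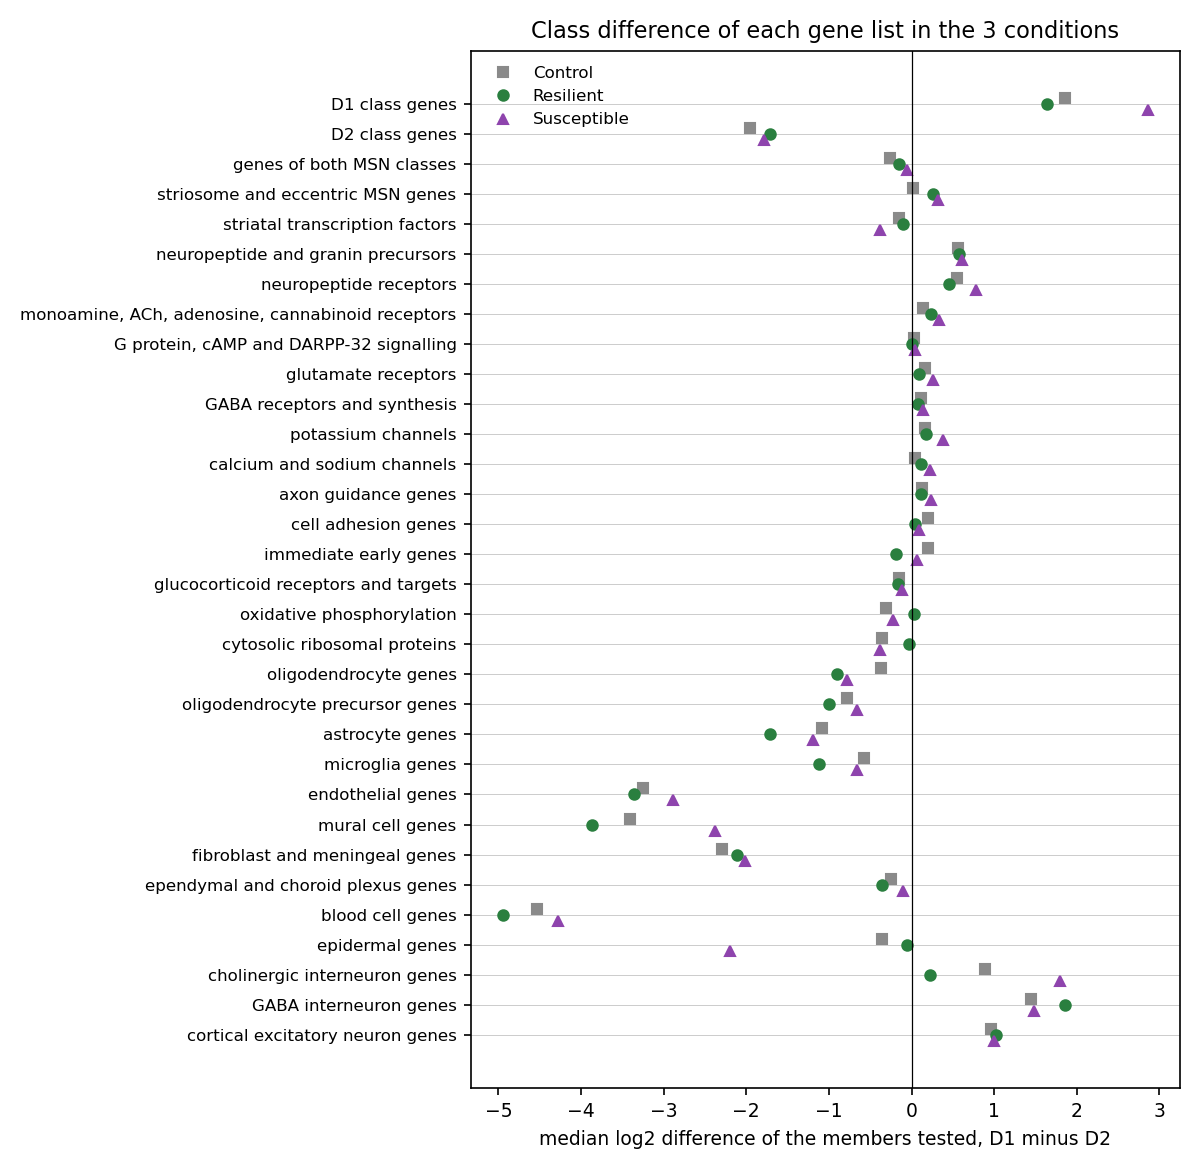
Median log2 class difference, D1 minus D2, of each gene list in Control (grey squares), Resilient (green circles) and Susceptible (purple triangles) mice. Of the 32 lists, 30 lie on the same side of 0 in all 3 conditions, and the oxidative phosphorylation and ribosomal protein lists lie at 0.035 and -0.035 in Resilient and below -0.2 in the others with all libraries, a difference that no member's own test called by edgeR.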

How the data were processed

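RNA was sequenced from HA-immunoprecipitated polyribosomes of accumbens punches, amplified from 10 ng per library, in 30 libraries that the labels describe as biological replicates of 4 pooled mice each. The deposited values are raw counts per gene, made by the authors with HISAT2 and HTSeq on GRCm38 (mm10), per the submitters' processing notes. The strand setting and annotation release were not given in the sources used here, so reads of overlapping antisense genes cannot be told apart. HTSeq summary lines, which name no gene, took 10.1% to 11.6% of the reads in the Resilient libraries' tables and were left out.

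Counts were tested with edgeR 4.0.16 in R 4.3.3 (TMM, filterByExpr with a minimum count of 10 and total of 15, robust quasi-likelihood F test), in 1 model of the 6 groups over 30 libraries, with Benjamini-Hochberg adjustment and a threshold of 0.05. Of 55335 genes, 19368 were tested, with a biological coefficient of variation of 41.4%. Tests of a difference between conditions were interaction contrasts of that model. DESeq2 1.42.0 and limma 3.58.1 (voom) were alternatives. CPM use the effective library size, the gene counts times the TMM factor. Symbols and coordinates are from the GENCODE annotation of GRCm38, with 55154 genes given a symbol.

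The 32 gene lists, 764 genes in all, and the comparison itself were chosen with earlier results of these data known. Genes were named by a rule: the 6 markers and Rpl22, in each direction the 10 called genes with the smallest adjusted p, the 5 with the largest difference at 5 CPM or more, and up to 3 called members per list, and for each difference between conditions the genes with the smallest p. This gave 113 genes, and list members named beyond it were picked after their values were seen. Some genes that the rule names are not reported here. Same-numbered D1 and D2 libraries had correlations of -0.0656 to 0.0334, so the numbers were not used to pair them.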

Additional observations from a re-analysis of the deposited data

Results flagged for a closer look

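Single libraries were compared with the others of their class and condition, over 290 sets of 5 libraries, by the gap of the highest or lowest library relative to the whole range (Dixon's test). Chance gives about 1 in 20 such sets. The sets were genes named by the rule and list sums from the same libraries, so they were not independent and that share is a rough guide. Of the sets, 43 (14.8%) passed, 28 of them through D2 Resilient replicate 5. In that library the D1 class genes Drd1, Pdyn, Tac1, Sfxn1, Slc35d3 and Zfp521 were at 414, 434, 792, 143, 82.3 and 11.8 CPM, each above the other 4 D2 libraries, and the D1 class sum was 1972 CPM. Also above the others were Sst at 133, Pvalb at 5.43, Sema5a at 14.8, Nrp2 at 39.2 and Grik1 at 4.62 CPM, and the cholinergic interneuron sum at 16.5 CPM. Below the other D2 libraries were Drd2 at 205, Adora2a at 491, Gpr6 at 100.5 and Sp9 at 31.9 CPM, genes of the D2 class. The endothelial genes Pecam1, Flt1 and Ly6a were at 4.62, 17.3 and 10.96 CPM there, and the endothelial sum at 121 CPM. The glial genes Gfap, Gja1, Ntsr2, Cldn11 and Olig2 were at 5.27, 14.1, 11.2, 12.3 and 1.05 CPM, and the astrocyte sum at 448 CPM. Rpl22 was at 54.5 CPM, below 62.7 to 66.1 CPM in the others.

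The other 15 sets were spread over 6 libraries. In D2 Resilient replicate 1, Id4 was at 635 and Kcna4 at 162 CPM, above the other D2 libraries, Kcnj9 was at 42.8 CPM, below them, and the transcription factor sum was highest at 6410.0 CPM. In D2 Resilient replicate 2, Ttr was at 37.4 CPM. In D1 Resilient replicate 5, Six3 was at 159 CPM and the sums of transcription factors, glucocorticoid genes and oxidative phosphorylation genes were the highest of D1 at 5718, 1321 and 14876 CPM, while Slc17a7 at 458 CPM and the cortical sum at 663 CPM were the lowest. In D1 Resilient replicate 4, Kcnc2 was at 65.3 and Elfn1 at 17.2 CPM. In D1 Resilient replicate 2, Jund was at 152 CPM against at most 12.7 CPM in the other D1 libraries, and in D1 Resilient replicate 3 the epidermal sum was the lowest at 46.0 CPM.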

How the results depend on the processing

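The count of 1288 class differences in Resilient mice was 3412 with voom, 2184 with only the groups compared in the fit and 960 to 1453 with 1 library left out, and without replicate 5 of either class, an alternative chosen after seeing the data, it was 1316. The Control count of 1608 was 5511 with voom, 2696 with only its groups and 981 to 1794 with 1 library left out, the lowest without D1 Control replicate 3. The Susceptible count of 4621 was 915 with only its groups and 3508 to 6218 with 1 library left out, and 2076 without D1 Susceptible replicate 1 and D2 Susceptible replicates 1 and 2. For Resilient minus Control the 0 genes called became 7 with DESeq2, 160 with voom and 12 with only the groups compared, and 0 to 0 with 1 library left out. For Resilient minus Susceptible they became 47 with DESeq2 and 0 to 156 with 1 library left out. The cause of these changes was not tested. With the replicate number as a block the Resilient count was 1230 (530 on the D1 side, 700 on the D2 side). The labels tie the numbers to no shared source, and 2 D1 and 0 D2 libraries correlated best with their own number. Of the 113 genes named by rule, 105 were called and 82 of these were called under every alternative run. With 1 library left out, 18 lost their call at least once, with Cacna2d2, Cldn11, Foxp4, Mog, Olig2, Pdgfra and Plxnb1 among those lost for 7 or 8 of the 10 libraries. Rpl22 and Rps29, both near 0, changed sign: Rpl22 was 0.017 with no filter and -0.038 to 0.047 with 1 library left out, and Rps29 was -0.042 without replicate 5 of either class, -0.015 with DESeq2 and with its size factors, -0.086 with voom, -0.012 with only the groups compared and -0.101 to 0.163 with 1 library left out. At these depths 3 counts were at most 0.0620 CPM, and differences at that level were not detectable.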
